A study of Eohaustorius estuarius with 16 samples.

Results

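Of the 7556 probes that gave a usable signal, 37 were lower on each of the 8 arrays of cyfluthrin-exposed animals than on any of the 8 arrays of control animals. These 37 transcripts, of 8507 on the array, are described here. They were chosen by their measured levels: a probe belongs to the set when the highest of its 8 cyfluthrin values lies below the lowest of its 8 control values, which held for 0.490% of the probes tested. That gap, and any fold change between the same groups, is therefore a description and not a test.

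The animals were Eohaustorius estuarius, a burrowing estuarine amphipod. The cyfluthrin group had been kept for 10 days in sediment spiked with the insecticide at a nominal 1.6 µg/kg, and the control group for 10 days in sediment spiked with solvent. Total RNA of whole bodies was extracted by a single laboratory, and the arrays described here were labelled with Cy3 and hybridised in laboratory A of a 6-laboratory comparison. Nothing in the labels says whether the animals of a group came from separate containers, so p-values measure the spread between these samples only. Neither sex nor age is given. An n or SD given for cyfluthrin or control animals is taken over arrays. How many animals an array stands for is not given here.

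Cyfluthrin is a pyrethroid. Pyrethroids hold voltage-gated sodium channels of nerve cells open for longer than normal, which leads to repeated firing and paralysis, and crustaceans are among the animals most sensitive to them. Arthropods break pyrethroids down with esterases and cytochrome P450 enzymes. Which genes the 37 transcripts come from was not tested, because the files pair the probes with numbered contigs and with neither gene names nor sequences. Each transcript is therefore given by its contig name alone.

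Levels are log2 values of the spot signal relative to the array's own 75th percentile, so that 0 means a signal equal to that percentile. The percentile itself ranged from 251 to 633 on the cyfluthrin arrays and from 240 to 553 on the control arrays. The arrays came from 2 slides, each with 4 cyfluthrin and 4 control arrays, and the slides were scanned at different times and read with different extraction protocols. On both slides the cyfluthrin arrays lay in row 2 and the control arrays in row 1, and a difference between rows cannot be told apart from one between exposures. No spot was saturated.

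The set was a collection of mostly moderate falls. The median transcript was lower by 0.99 on the log2 scale, a control level 1.99 times the cyfluthrin level, while the median over all probes tested was -0.07. The falls ranged from 1.21-fold to 5.23-fold: 3 transcripts were at least 4-fold lower, 14 were 2-fold to 4-fold lower, and 20 were less than 2-fold lower. All 37 had a lower mean on the cyfluthrin arrays under every scaling tried, with no scaling included. Because whole bodies were measured, fewer cells of a type and less RNA per cell cannot be told apart.

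The number of probes with separate groups depended on how arrays were scaled. With each array divided by its median in place of its 75th percentile, 14 probes met the rule, 9 of them among the 37. Without scaling 5 probes met it, all among the 37. Quantile normalization gave 35 probes, 28 of them among the 37, and the authors' deposited value table gave 35, 26 of them among the 37. Only contig_2087 and contig_2561 kept separate groups under all 11 processing alternatives. Not all of the 11 could close a gap. With a lower or higher minimum signal, the spot median or no filter on dim probes, all 37 stayed separate. The spot median equals the mean for probes with 1 or 2 spots, and the filter changes no value.

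**Figure D1:**
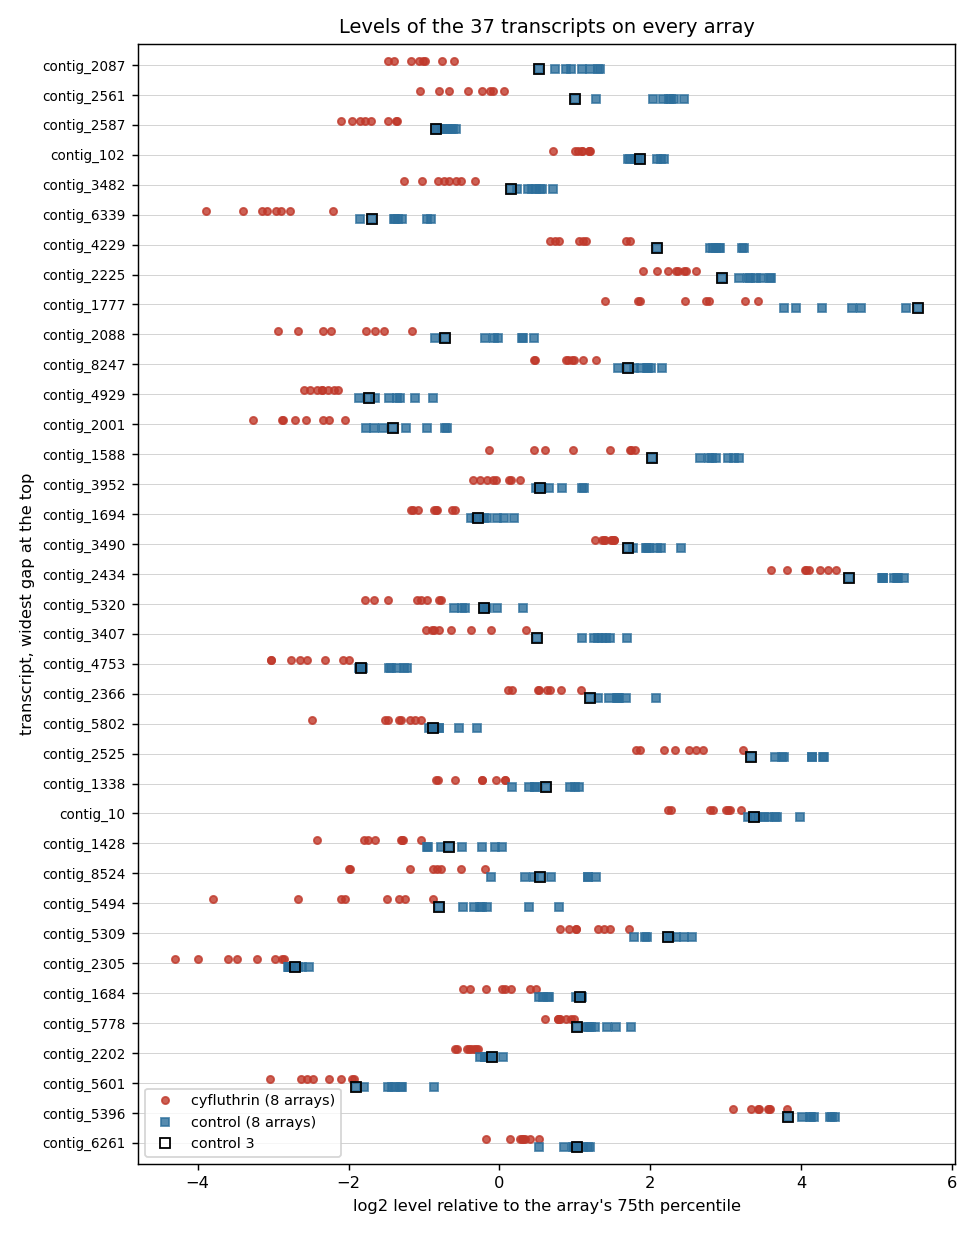
Log2 level relative to the array's 75th percentile (x axis) of each of the 37 transcripts (y axis, widest gap at the top) on the 8 cyfluthrin arrays (red circles) and the 8 control arrays (blue squares), with control 3 outlined in black. Every red circle lies left of every blue square in its row; the gap is 1.13 for contig_2087 and shrinks to nearly nothing at the bottom.

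The widest gap was that of contig_2087. Its level was -1.48 at the lowest, -1.04 at the median and -0.60 at the highest on the cyfluthrin arrays, against 0.53, 1.02 and 1.33 on the control arrays. An empty interval of 1.13 log2 units thus separated the groups, wider than the whole spread of the values in either. The mean level was -1.06 ± 0.29 in cyfluthrin animals and 1.004 ± 0.28 in control animals (SD, n = 8 each). This is a log2 change of -2.06 with an SE of 0.15 (adjusted p = 5.27e-07 in limma).

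The steepest fall belonged to contig_2561. It ranged from -1.05 over a median of -0.32 to 0.07 on the cyfluthrin arrays and from 1.01 over a median of 2.21 to 2.45 on the control arrays. Its gap of 0.94 was the second widest, although 2 control arrays lay well below the other 6. Means were -0.41 ± 0.39 in cyfluthrin animals and 1.97 ± 0.53 in control animals (SD, n = 8 each), giving a log2 change of -2.39 with an SE of 0.23 (adjusted p = 5.92e-06 in limma).

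Smaller falls left wide gaps where replicate arrays lay close together. The contig_2587 level lay between -2.09 and -1.36 (median -1.74) on the cyfluthrin arrays and between -0.84 and -0.58 (median -0.70) on the control arrays. Its log2 change was only -0.99 (SE 0.12), and its control SD of 0.10 was far below the 0.39 of the median probe tested. For contig_102 the cyfluthrin arrays ran from 0.71 to 1.20 (median 1.10) and the control arrays from 1.70 to 2.19 (median 1.85), with cyfluthrin 4 standing apart below the rest. Its log2 change of -0.85 (SE 0.11) left a gap of 0.50.

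The other transcripts with wide gaps were contig_3482 and contig_6339. The level of contig_3482 was between -1.26 and -0.32 (median -0.71) on the cyfluthrin arrays, against 0.16 to 0.70 (median 0.46) on the control arrays, a log2 change of -1.18 (SE 0.13). Signals of contig_6339 were much dimmer, at -3.89 to -2.21 (median -3.02) on the cyfluthrin arrays and -1.84 to -0.90 (median -1.36) on the control arrays. The size of this fall changed with the processing. The log2 change of contig_6339 was -1.69 (SE 0.20) with the deposited background subtraction. Under the normexp background correction, which starts from the median signal of the spot and adds an offset of 50, it was -0.88 and the groups overlapped. A constant added to dim signals shrinks their fold change by arithmetic. The parts of the offset, the correction and the other signal in this change were not tested.

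Most of the 37 gave a bright signal in control animals. Control means of 23 of them (62.2%) were at or above the array's 75th percentile, against 28.0% of all probes tested, and 36 of the 37 were well above background on all 16 arrays, against 79.9% of all probes tested. Brightness depends on the probe as well as on the transcript, so it gives no order of abundance among transcripts, and a rule that asks for separate groups favours probes that are measured with little scatter. The size of the fall did not follow brightness closely: across the 37 transcripts, which share the same arrays, the control level and the log2 change correlated at r = -0.18. The median log2 change was -0.99 for the 23 brighter and -0.98 for the 14 dimmer ones.

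Among the brightest, contig_2434 had levels between 3.59 and 4.46 (median 4.08) on the cyfluthrin arrays and between 4.64 and 5.36 (median 5.16) on the control arrays. Control 3, at 4.64, stood apart from the other controls, the next of which was at 5.07. The log2 change was -1.04 (SE 0.14).

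The transcript contig_1777 combined a bright signal with a steep fall and a wide scatter. On the cyfluthrin arrays it ranged from 1.40 to 3.43 with a median of 2.60, and on the control arrays from 3.78 to 5.55 with a median of 4.68. It had the second steepest log2 change of the set, -2.16 with an SE of 0.34 (adjusted p = 0.0015 in limma), and SDs of 0.72 in cyfluthrin and 0.68 in control animals. The transcript has 1 spot, which was marked as an outlier on control 4, so its control values come from 7 arrays.

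The other bright transcripts differed in the size of the fall. For contig_2525 the cyfluthrin arrays lay between 1.80 and 3.23 (median 2.42) and the control arrays between 3.33 and 4.30 (median 3.96), a log2 change of -1.52 (SE 0.20). For contig_5396 they lay between 3.098 and 3.81 (median 3.50) in cyfluthrin and between 3.82 and 4.45 (median 4.15) in control animals, a log2 change of -0.71 (SE 0.12). Its gap of 0.014 was the second narrowest of the 37.

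At the edge of the rule the gaps were smaller than 0.086, the usual difference between repeated spots of the same transcript. The narrowest gap was that of contig_6261, whose highest cyfluthrin array and lowest control array both stood at 0.53. The first probes outside the rule were contig_6351, with a gap of -0.02 (an overlap) and a log2 change of -0.28 (SE 0.11), and contig_5610, with a gap of -0.03 and a log2 change of -0.48 (SE 0.14). In all, 13 of the 37 gaps were under 0.1 and 10 were at least 0.3. The smallest fall inside the rule, a log2 change of -0.28 (SE 0.09) for contig_2202, was as small as that of contig_6351 outside it.

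**Figure D2:**
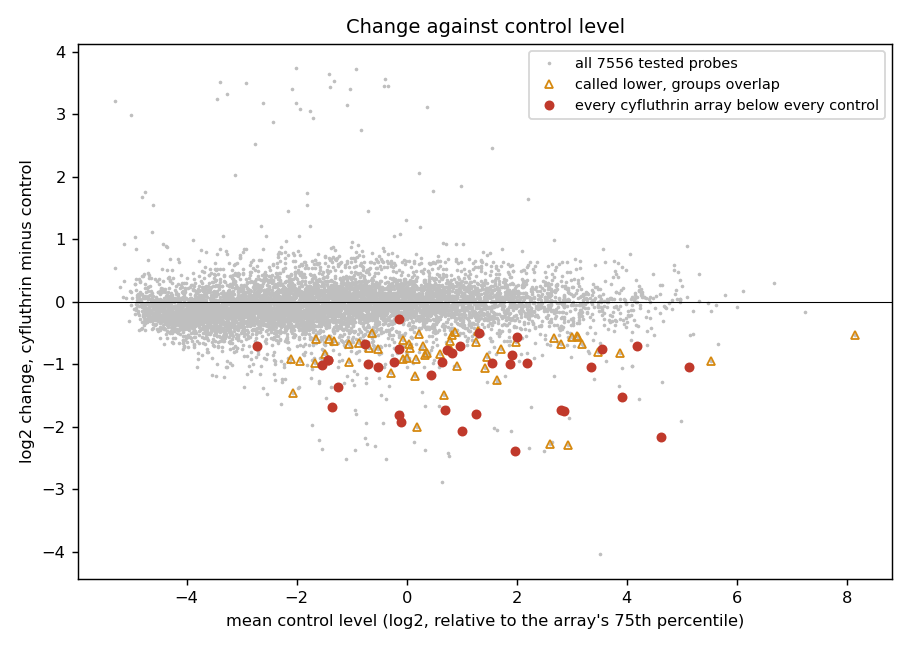
Log2 change, cyfluthrin minus control (y axis), against the mean control level (x axis, log2 relative to the array's 75th percentile) for all 7556 tested probes (grey), the 37 transcripts with separate groups (red circles) and the 53 other probes called lower by limma (orange triangles). The 37 run from a control level of -2.71 to 5.13 and from a log2 change of -2.39 to -0.28, among other probes with changes of similar size.

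A gap between groups and a small p-value did not pick the same probes. In limma, with Benjamini-Hochberg adjustment over all 7556 probes, 87 probes (1.15%) were lower at an adjusted p below 0.05, and 34 of the 37 were among them, 39.1% of those calls. These counts moved with the processing: limma called 36 probes, 23 of them among the 37, with median scaling, 11 probes, 9 of them among the 37, without scaling, and 154 probes, 36 of them among the 37, with the slide in the model. The other 53 called probes had overlapping groups. Since the rule used the same contrast, the share of the 37 that was called is no further evidence. The 3 that were not called were contig_5802 (log2 change -0.68, limma adjusted p = 0.057), contig_2305 (-0.70, limma adjusted p = 0.070) and contig_2202 (-0.28, limma adjusted p = 0.116); with the slide in the model, contig_2202 alone was not called (limma adjusted p = 0.055). These 3 were named after their values were seen.

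Scatter between arrays was mostly low in the set, which the rule favours, and it was larger in the cyfluthrin group. The median SD over the 37 was 0.36 in cyfluthrin and 0.26 in control animals, against 0.43 and 0.39 over all probes tested. The SD was larger in the cyfluthrin group for 28 of the 37 (75.7%), against 55.2% of all probes tested. The rule used these same values and places the cyfluthrin signals lower, so this is a description. The part of the lower signal in the scatter was not tested. The widest scatter was that of contig_5494 in cyfluthrin animals (SD 0.94), where cyfluthrin 7 stood at -3.80 and the group median at -1.77. Its 2 spots differed by up to 3.69 on an array. The cyfluthrin 7 value is what 1 spot at the minimum of 0.02 set for signals and 1 spot 3.69 higher average to. The SD therefore holds a disagreement between spots as well as the spread between samples. This transcript was named after its values were seen.

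Repeated spots allowed the rule to be checked within arrays. Of the 37 transcripts, 27 had 2 spots and 10 had 1. With each spot taken alone, 21 of the 27 kept separate groups at both spots, 5 at only 1 spot, and contig_2305 at neither. The difference between the 2 spots, taken as its median over arrays, was 0.086 log2 units at the median of the 27 and 1.33 for contig_2305, whose groups were separate only in the average of its spots. For contig_2087 the gap was 1.17 at one spot and 1.09 at the other, and for contig_2561 it was 1.07 and 0.81. Spots of a pair lay at least 18 rows or columns apart on the array. Both spots read the same labelled sample, so they say nothing about the spread between samples.

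The fall was present on both slides for all 37, which the rule itself forces. The median log2 change of the 37 was -0.97 on slide 1 and -1.07 on slide 2, while that of all probes tested was -0.20 on slide 1 and 0.08 on slide 2. With 4 cyfluthrin and 4 control arrays, limma called 10 of the 37 lower on slide 1, where it called 0.675% of all probes tested, and 22 on slide 2, where it called 0.648%. Of the 37, 8 were called on both slides and 13 on neither. Separate groups on each slide taken alone were found for 72 probes; 35 of these are not among the 37, since their groups overlapped over all 16 arrays.

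**Figure D3:**
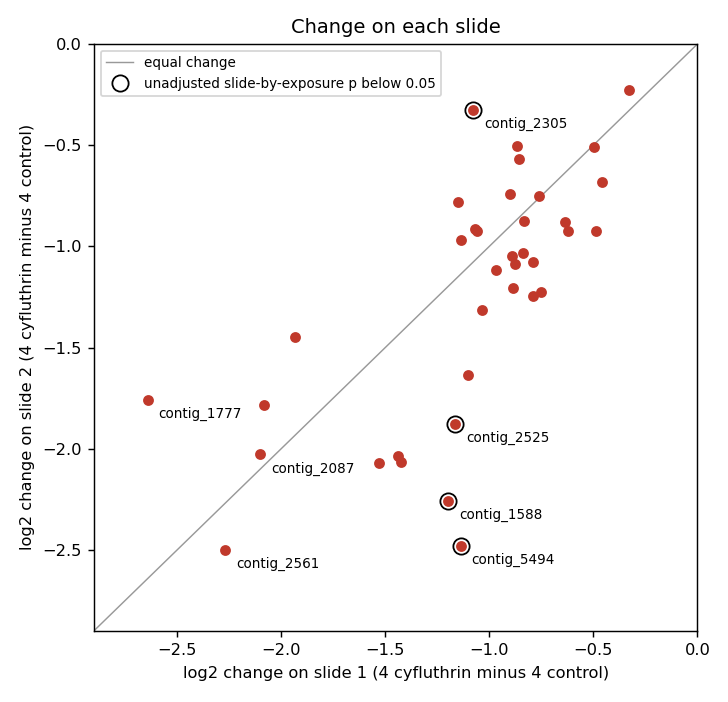
Log2 change, cyfluthrin minus control, on slide 1 (x axis, 4 arrays a group) and slide 2 (y axis, 4 arrays a group) for the 37 transcripts, with the line of equal change. All points lie below 0 on both axes. Rings mark the 4 transcripts with an unadjusted slide-by-exposure p below 0.05 in limma, about the same share as among all probes tested. Of these, contig_2305 fell more on slide 1 and contig_1588, contig_2525 and contig_5494 more on slide 2.

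Whether the fall differed between the slides was fitted with a slide-by-exposure term. Because the rule asks for separate groups on each slide, it also limits how far the 37 can differ between slides, so their values are a description. No probe of the 7556 (0%) passed in limma, and none of the 37, whose lowest adjusted p was 0.431. At an unadjusted limma p below 0.05 the term singled out 4 of the 37, about the same share as the 10.8% of all probes tested. Such values are therefore no trait of the set. The 4 were contig_2305 (-1.08 on slide 1, -0.33 on slide 2), contig_5494 (-1.14 and -2.48), contig_1588 (-1.20 and -2.26) and contig_2525 (-1.16 and -1.88). They are named here after their values were seen. The slide 2 change of contig_5494 includes cyfluthrin 7, where its 2 spots disagreed. The log2 change of contig_2087 was -2.10 on slide 1 and -2.03 on slide 2, with a difference, slide 2 minus slide 1, of 0.07 (SE 0.31). That of contig_2561 was -2.27 on slide 1 and -2.50 on slide 2, with a difference of -0.23 (SE 0.39). With 4 arrays a group on a slide, SEs of this size cannot show small differences between the slides.

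The slides themselves differed in level for some of the 37. Limma called 4 of them different between slide 2 and slide 1, against 18.6% of all probes tested, and the rule favours probes with small slide differences. The count rested on single arrays: it was 7 of the 37 without control 3 and 6 without control 4. With median scaling it was 2. Higher on slide 2 were contig_2088 by 0.87, contig_1428 by 0.59 and contig_2305 by 0.49, while contig_5309 was lower, with a log2 difference of -0.42.

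Averaged over the 37 transcripts, the arrays fell into bands that the choice of members sets apart. The mean level was -0.15 ± 0.12 on the cyfluthrin arrays and 0.9997 ± 0.14 on the control arrays (SD, n = 8 each). The mean of control 4 leaves out the bright contig_1777, which has no value there, and is lower for it. Cyfluthrin arrays ran from -0.29 for cyfluthrin 3 to 0.07 for cyfluthrin 2, and control arrays from 0.75 for control 3 to 1.17 for control 1.

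Single arrays decided where the gap ended. Control 3 was the lowest control for 16 of the 37 transcripts, and cyfluthrin 2 was the highest cyfluthrin array for 10. The mean deviation of control 3 from the control mean was -0.26 over the 37, while its median deviation over all probes tested was 0.20. Without control 3, 57 probes met the rule in place of 37, and without cyfluthrin 6 the number was 51. Without any other single array it was between 38 and 43. Leaving out an array can only keep or widen a gap, so this number could not fall. Among the 4 control arrays of slide 1, control 3 had the highest 75th percentile (339, against 240 to 321), the highest share of probes well above background (91.4%, against 81.5% to 90.7%) and the highest signal of negative control spots (18, against 7 to 15). The part of these in its position was not tested.

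**Figure D4:**
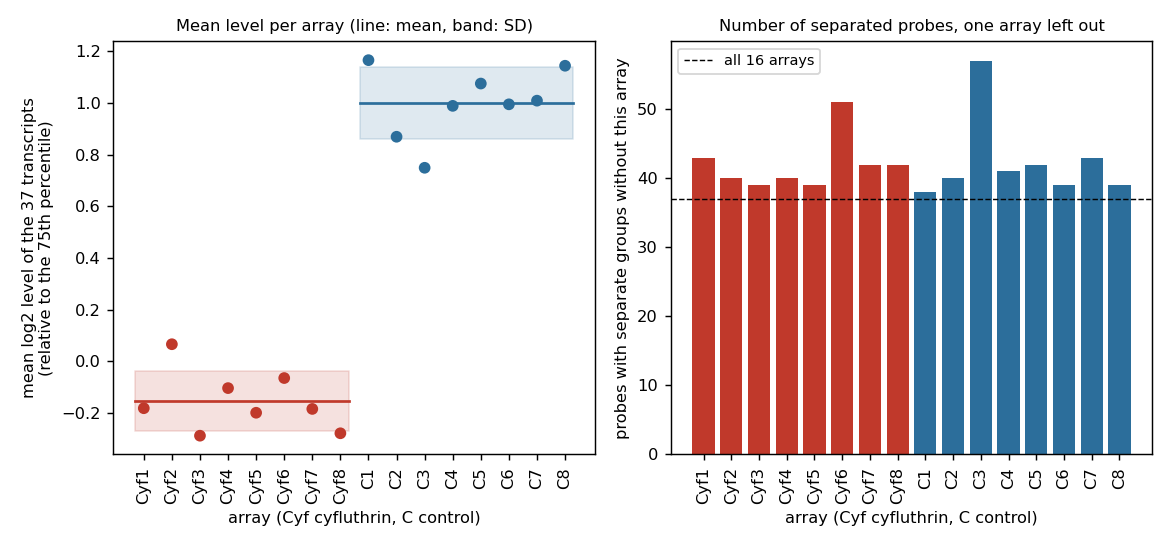
Left, the mean log2 level of the 37 transcripts on each array (red cyfluthrin, blue control, with a line for the group mean and a band for the SD). The mean of control 4 leaves out contig_1777. Right, the number of probes whose groups are separate when that array is left out, against 37 with all 16 arrays (dashed). Leaving out an array can only keep or raise this number. The bars for control 3, at 57, and cyfluthrin 6, at 51, stand highest.

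Within groups the 37 did not move as a single block. Over the 666 pairs, deviations from the group means on the 16 arrays correlated at a median r of 0.13, against 0.07 over all pairs of probes tested, and 36.5% of the pairs had a negative r, against 43.4% of all pairs of probes tested. All these values share the same arrays and scaling, and differences between the slides enter them. The rule chose the 37 on the same values and favours little scatter, so their correlations are a description. With deviations taken from the mean of the group on each slide, the median r was 0.19 over the 666 pairs and 0.07 over all pairs of probes tested. Without control 3, and with the slides together, the median over the 666 pairs was 0.08. The transcripts that tracked the mean of the other 36 most closely were contig_2087 (r = 0.69), contig_4229 (r = 0.69) and contig_2434 (r = 0.69); without control 3 these values were 0.58, 0.54 and 0.55, and within slides 0.76, 0.70 and 0.69. Those that tracked it least were contig_2305 (r = -0.12), contig_1684 (r = -0.10) and contig_5320 (r = -0.03), for which the values within slides were 0.09, -0.05 and -0.09.

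Few pairs of the set correlated closely. Of the 666 pairs, 15 (2.25%) reached r = 0.7, against 7.29% of all pairs of probes tested; within slides 17 pairs (2.55%) did, against 6.94%. Of the 15 pairs, 11 also reached it without control 3, and 9 within slides. The rule favours probes with little scatter, and its part in these shares was not tested. The closest pair was contig_3407 and contig_4229 (r = 0.91, 0.87 without control 3 and 0.89 within slides), followed by contig_2225 and contig_2434 (r = 0.90, 0.86 without control 3 and 0.94 within slides) and by contig_2525 and contig_5396 (r = 0.87, 0.84 without control 3 and 0.83 within slides). These pairs were named after their values were seen. The transcript contig_2561 correlated with contig_2087 at r = 0.81 (0.92 within slides) and with contig_2088, which was higher on slide 2, at r = 0.74 (0.65 within slides).

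**Figure D5:**
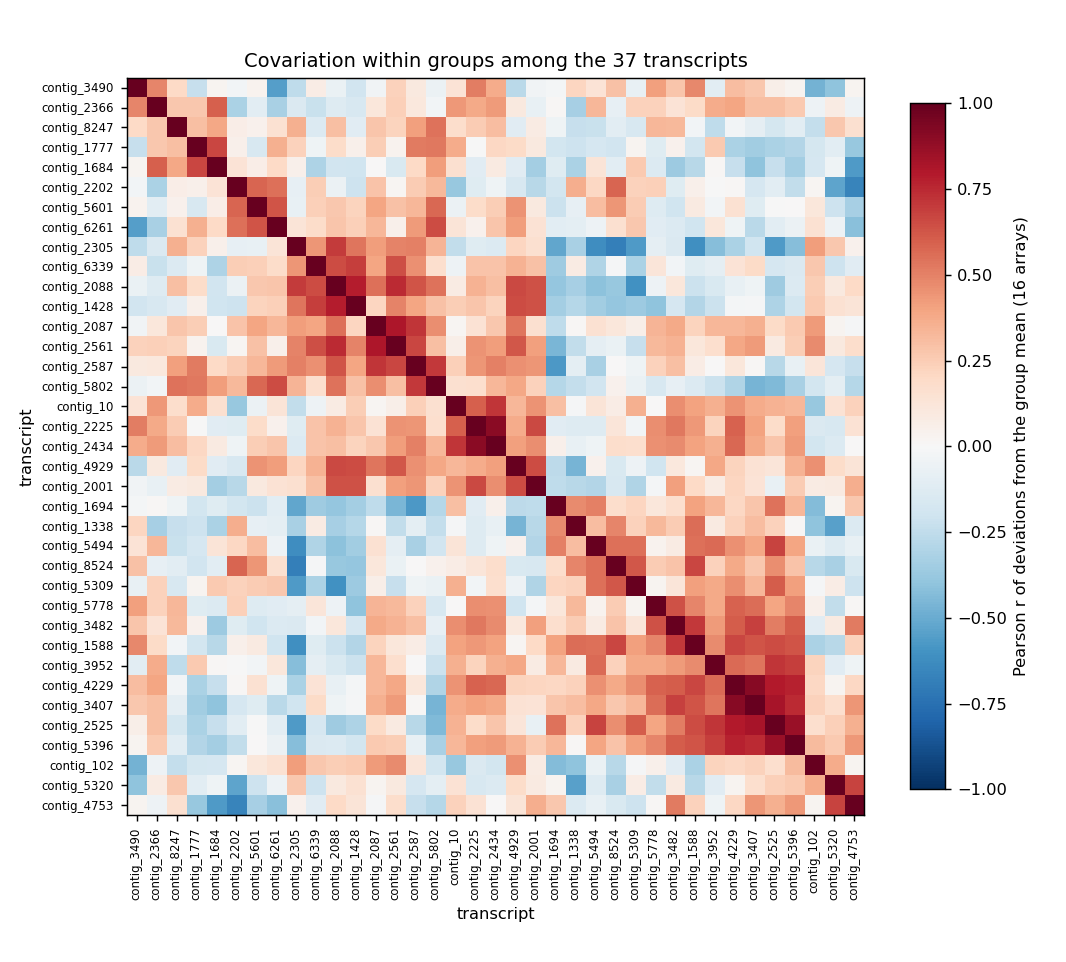
Pearson r of the deviations from the group mean over the 16 arrays for each pair of the 37 transcripts (both axes, ordered by average-linkage clustering; red positive, blue negative). Red blocks stand around contig_4229, contig_3407, contig_2525 and contig_5396 and around contig_2088, contig_2087 and contig_2561, in a field with a median r of 0.13; differences between the slides are part of these values.

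Some of the 37 stood next to each other in the numbering of the probes. Probe names carry a running number in each of 3 series; the sources used here do not say what the order stands for. The first series held 21 of the 37 (56.8%) and 42.6% of the probes tested. In 4 pairs, both members were neighbours among the tested probes of this series, out of 7553 neighbouring pairs over all 3 series. The neighbours contig_3407 and contig_4229, at numbers 528 and 529, had log2 changes of -1.80 and -1.74 and correlated at r = 0.91 (0.89 within slides). The neighbours contig_2087 and contig_2088, at 4119 and 4121, had log2 changes of -2.06 and -1.93 and correlated at r = 0.55 (0.80 within slides). Those of contig_3482 and contig_4753, at 1112 and 1114, were -1.18 and -1.02, with r = 0.52 (0.53 within slides).

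In the fourth pair the slides decided the sign of the correlation. At numbers 2318 and 2319, contig_1428 and contig_5309 had log2 changes of -1.05 and -0.98. Their deviations correlated at r = -0.36 over both slides, where contig_1428 was higher and contig_5309 lower on slide 2, and at r = 0.65 within slides. Over all neighbouring pairs of tested probes the median r was 0.11, and 9.07% of them reached 0.7, with 0.11 and 8.98% within slides. The 64 tested neighbours of the 37 that are not themselves in the set had a median log2 change of -0.15. Limma called 3 of them lower and 1 higher. Over all probes tested the median was -0.07, and limma called 1.15% lower. The share of all probes called higher is not given here. Whether the neighbours differ from other probes was not tested. Spots of the 4 neighbouring pairs lay at least 24 rows or columns apart, so they were not next to each other on the array.

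The 15 tested probes numbered 4102 to 4133 held 4 of the 37. The log2 changes there were -1.69 for contig_6339, -2.06 for contig_2087, -1.93 for contig_2088 and -2.39 for contig_2561. Beside them, contig_2086 at 4118 had a log2 change of 0.05 (SE 0.19) and contig_2089 at 4123 one of 0.03 (SE 0.17), although their contig names run on from those of contig_2087 and contig_2088. At the start of the run, contig_4735, contig_4879 and contig_5659 were higher in cyfluthrin animals, by 3.04, 3.65 and 3.24 on the log2 scale (adjusted p = 0.000185, 1.96e-06 and 8.18e-06 in limma). Within groups these 3 varied against contig_2087, with r of -0.64, -0.67 and -0.70 over the 16 arrays and of -0.70, -0.67 and -0.71 within slides. The run and these 3 probes were named after their values were seen. How often other runs or pairs look like this was not counted.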

How the data were processed

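The deposited scanner files hold spot intensity values on a linear scale, made with Agilent Feature Extraction 10.7.3.1 per the file headers (the submitters' processing notes name 9.1); the processed signal is background-subtracted. A value table deposited by the authors gives 8507 probes as log2 values with row medians of 0; its columns followed quantile-normalized, row-centred scanner values at r of 0.87 to 0.97, with column medians from -0.04 to 0.06. The sources used here do not say how the authors normalized it.

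Processed signals were scaled to the 75th percentile of their array, set to at least 0.02, put on the log2 scale and averaged over a probe's spots, without control and outlier spots. Probes well above background on 8 or more arrays were tested in R 4.3.3 with the lmFit and eBayes functions of limma 3.58.1 (two-sided, no covariates, Benjamini-Hochberg over 7556 probes, threshold 0.05); the fit was tested on simulated data. Slides were read from the headers. The members, tests, lists and alternatives were chosen with earlier results of these data known. Transcripts named by fixed criteria are the 6 with the widest gap, the 4 brightest and the 3 steepest. The same criteria took the 2 just inside and the 2 just outside the rule, and the 3 that tracked the others most and least. All other transcripts were named after their values were seen, whether or not the text marks them so. Gene lists and cell type markers were not used, as no probe has a gene name. For arrays their number limits the precision. Same-numbered cyfluthrin and control arrays were not treated as pairs: their deviations correlated from -0.38 to 0.72, 3 of 8 above 0.1.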

Additional observations from a re-analysis of the deposited data

Results flagged for a closer look

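A single array lay far from the other arrays of its group in 6 of the 82 groups of 8 arrays examined, where chance gives about 1 in 20, or 4.1. Control 3 accounts for 3 of the 6: its level was 2.09 for contig_4229, with the next control at 2.80, 2.02 for contig_1588, with the next at 2.65, and 4.64 for contig_2434, with the next at 5.07. Cyfluthrin 4 stood at 0.71 for contig_102, with the next cyfluthrin array at 0.998, and cyfluthrin 1 stood at -2.48 for contig_5802, with the next at -1.52. The signal of the negative control spots was 37.5 on control 6, with the next control at 20.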

How the results depend on the processing

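The 37 transcripts kept a lower mean in cyfluthrin animals under every alternative that measured them. The filter on all 16 arrays left 36 of them, and the alternatives reuse the same arrays. Where arrays were left out, slides split, or the model or threshold changed, the rule itself fixed this sign. With median scaling, 14 probes met the rule, 36 of all tested probes were called lower and 2 of the 37 differed between slides; without scaling these were 5 probes and 11 calls, 9 of the calls among the 37. The median log2 change of the 37 was -0.80 without scaling, where that of all probes tested was 0.11, and -0.79 with normexp and its offset of 50. Calls over all probes were 154 with the slide block and 157 with array weights. They were 51 and 49 within slide 1 and slide 2 (10 and 22 of the 37), and 46 at a limma adjusted p below 0.01. A stricter threshold can only lower a count. Fewer arrays can move the number of calls either way, and what moves the other values was not tested. Leaving out each array in turn gave 38 to 57 probes by the rule, a count that this step can only keep or raise. It gave 34 to 35 of the 37 called and 62 to 112 calls over all probes. Median log2 changes of the 37 ran from -1.04 to -0.97. Of the 37, 3 to 7 differed between slides (7 without control 3), and 0 had a slide-by-exposure call each time. The replicate block called 86 probes lower, 33 of them among the 37; only 4 of the 16 arrays were most correlated with the array of their number. For the 17 named probes, 528 of 560 alternative values kept their side of the threshold, 25 lost and 7 gained a call, and none turned. For the members among them, the rule fixed the sign where arrays were left out, slides split, or the model or threshold changed. Checks of each spot alone, and of covariation without single arrays and within slides, were chosen after seeing the data.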
